A study of Mus musculus with 6 samples.

Results

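The genes described here encode the Kcne accessory subunits Kcne1, Kcne2, Kcne3 and Kcne4, the KCNQ channels Kcnq1, Kcnq3 and Kcnq5, and the Kcnh channels Kcnh1 and Kcnh2, the last known as hERG1. These 9 genes were taken by symbol from the 55055 genes of the deposited table, and they were chosen with their wild-type and knockout values in view, in particular the opposite directions of Kcne2 and Kcne4. Their genotype differences are therefore given as a description, and where counts of members past a threshold are printed, nothing is read from them. Pregnant mice late in gestation (E19.5 by the labels, day 19 by the design text) gave the RNA, which came from the myometrium, the muscular wall of the uterus. The 3 wild-type and 3 Tcf23 knockout (KO) libraries each came from a different animal, and the knockout was made with CRISPR/Cas9. The strain, the age of the mothers, the site of the edit, the number of founder lines and the genotype of the fetuses are not stated in those sources. Tcf23 is a gene of the basic helix-loop-helix family, and the study asks what its loss does to uterine contraction.

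KCNQ and Kcnh proteins form voltage-gated potassium channels that open on depolarisation and pull the membrane back towards rest, which limits the length and frequency of action potentials in smooth muscle. Kcne proteins are small single-pass membrane proteins that carry no current alone. They bind to channel subunits and change how these open: Kcne1 slows Kcnq1 and makes it carry the slow delayed rectifier current, Kcne2 and Kcne3 can hold Kcnq1 open at rest, Kcne2 can also join hERG1, and Kcne4 inhibits Kcnq1. KCNQ and hERG currents are known to restrain contraction of the uterus.

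All 4 Kcne genes have their whole coding sequence in 1 exon in GENCODE M21, with 103 codons in Kcne3, 123 in Kcne2, 129 in Kcne1 and 170 in Kcne4. The longest coding sequences of the 5 channel genes have 668 to 1162 codons in 11 to 16 exons. Kcne2 (ENSMUSG00000039672) lies on mm10 chromosome 16, 92292389 to 92298129, plus strand, and Kcne1 (ENSMUSG00000039639) on the same chromosome at 92345982 to 92359468, minus strand. Kcne4 (ENSMUSG00000047330) is on chromosome 1, 78816758 to 78820028, plus strand.

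The genomic sequence just upstream of Kcne2 and Kcne4 is shown because these were the fitted members whose wild-type and knockout libraries did not overlap. Capitals mark the E-box CANNTG, the letters that basic helix-loop-helix proteins as a class are known to bind. The motif reads the same on both strands. The sequences are from RefSeq (GRCm38.p6, the mm10 assembly), plus strand, 5′ to 3′, and run to the base before the first annotated start. They cover chr16:92292139-92292388 for Kcne2 and chr1:78816661-78816757 for Kcne4.

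Kcne2: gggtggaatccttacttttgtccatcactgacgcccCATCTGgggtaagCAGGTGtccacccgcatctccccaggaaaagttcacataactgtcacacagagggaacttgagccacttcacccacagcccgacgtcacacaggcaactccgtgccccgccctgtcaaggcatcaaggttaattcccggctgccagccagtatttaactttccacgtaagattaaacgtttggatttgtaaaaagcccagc

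Kcne4: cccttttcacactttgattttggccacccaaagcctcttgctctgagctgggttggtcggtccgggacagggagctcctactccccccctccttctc

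The Kcne2 stretch held 2 E-boxes, CATCTG and CAGGTG, and the Kcne4 stretch 0. The Kcne4 stretch lies within the span of Gm29536, a non-coding gene on the other strand that had 0 counts in all 6 libraries together. In the 250 bases before the first RefSeq start, which for Kcne4 runs past the first start in GENCODE, the count was 2 for each gene. E-boxes were present in 66.2% of all 32851 RefSeq windows of that length. A match is a description of the letters only. RefSeq windows were matched for 6 of the 9 genes.

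Total counts were 47345181 to 55236312 in wild-type and 39939686 to 65036402 in knockout. Tcf23 had 4203, 5970 and 3360 counts in wild-type replicates 1, 2 and 3 and 0, 2 and 1 in knockout, so the labels matched in all 6 libraries. Values below are deposited normalized counts, which are raw counts times 1 constant per library. Sums of marker genes are given in CPM, that is, scaled to a common library total. Defining smooth muscle genes were abundant in every library, but their sum (8 of 8 markers detected) was 15008 in knockout replicate 3, against 32763 and 37066 in knockout replicates 1 and 2 and 26528 to 30084 in wild-type. Knockout replicate 1 stood apart in placental and fetal membrane markers (8 of 8 detected in the series), at 311 CPM against 9.27 and 0.401 in knockout replicates 2 and 3 and 29.8 to 40.3 in wild-type. It was the highest library in 4 of these 8 markers (Tpbpa, Ceacam11, Prl8a9 and Plac1). Most of the sum was Tpbpa, a trophoblast gene, with 12602 normalized counts there and 12.6 to 1708 in the other libraries, while Prl3b1 and Psg21 were highest in wild-type replicate 2 and Ctsq in wild-type replicate 1. Gcm1 was at 0 in 5 of 6 libraries, Ctsq in wild-type replicate 3 and knockout replicate 3, and Prl8a9 in knockout replicate 3. In bulk tissue, fewer cells of a type and less RNA per cell cannot be told apart.

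Per kilobase of exon, which allows levels of different genes to be compared, Kcne4 was the most abundant member in wild-type myometrium. It had 3854 ± 247 normalized counts per kilobase (mean ± SD, n = 3 here and throughout), 4.38 times the level of Kcne2 (881 ± 303). Kcnh2 followed with 320.2 ± 33.7, Kcnq1 with 150.3 ± 45.5, Kcnq5 with 59.2 ± 16.3, Kcne3 with 35.6 ± 5.47 and Kcnh1 with 7.92 ± 3.00. Each of these 7 genes was separated from its neighbour in this order, with no overlap between wild-type libraries. Kcnq5 and Kcne3 were the closest pair, with a ratio of 1.66, and their lowest and highest libraries were 44.7 and 41.9 per kilobase. Kcne1 and Kcnq3 were close to absent and overlapped each other.

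In knockout the order of the means was the same, but 3 neighbouring pairs now overlapped. Kcne4 (1774 ± 736 per kilobase) and Kcne2 (1753 ± 87.4) had nearly equal means, Kcnh2 (518 ± 290) overlapped Kcnq1 (184.3 ± 64.7), and Kcnq5 (59.9 ± 21.4) overlapped Kcne3 (41.5 ± 5.69).

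**Figure D1:**
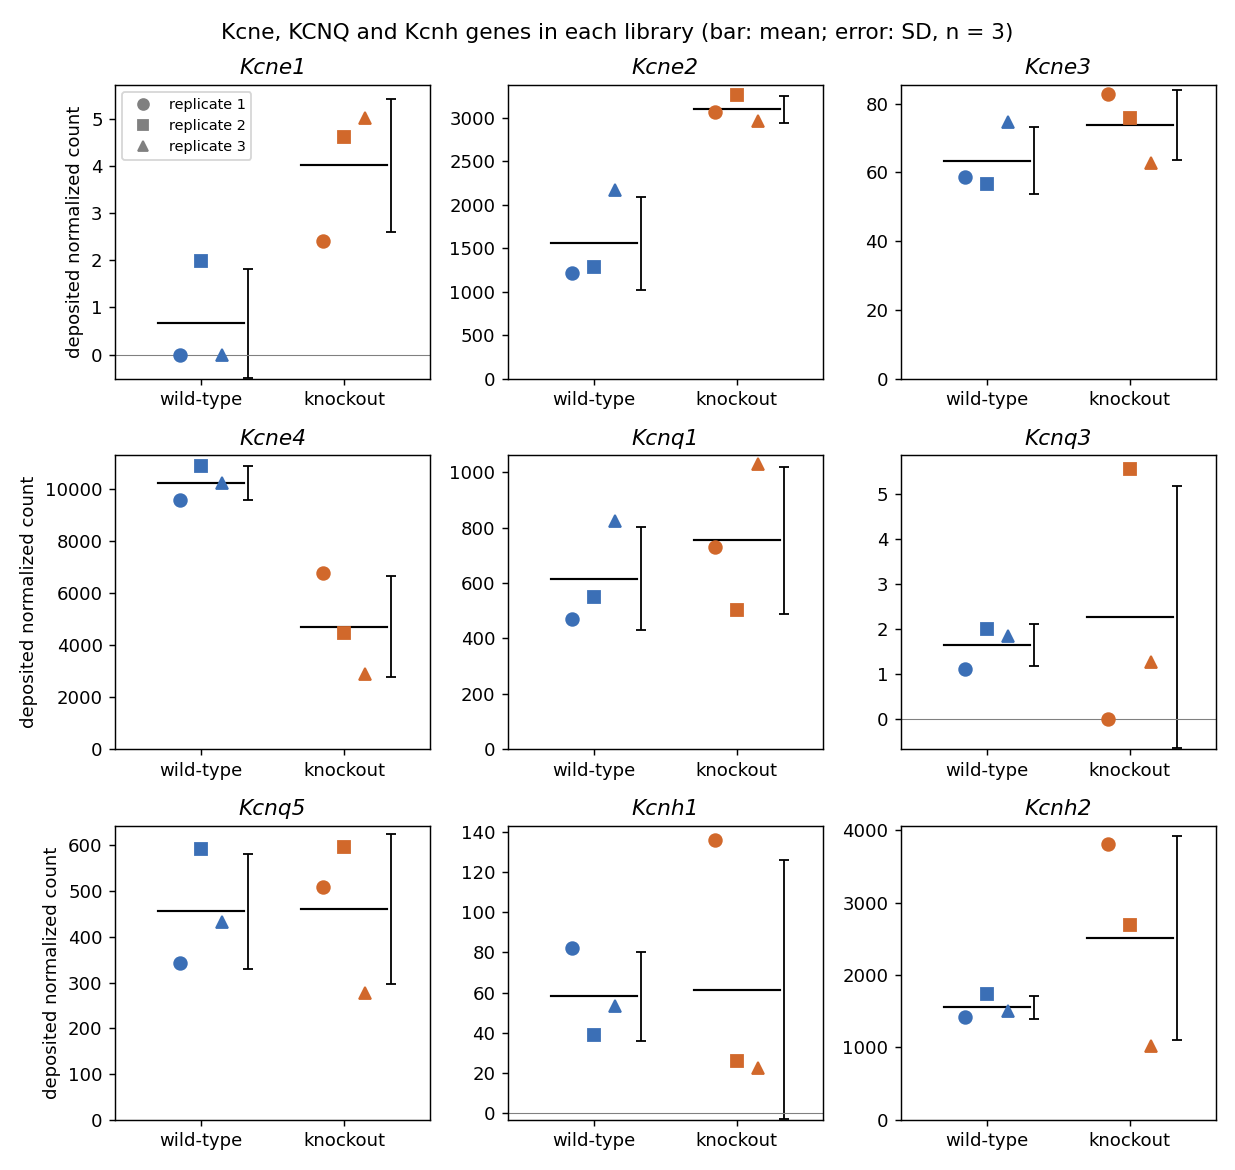
Deposited normalized counts of the 9 genes (vertical axes, a separate scale for each gene) in wild-type (blue) and knockout (orange) libraries, with the marker shape giving the replicate number, the bar the mean and the error bar the SD (n = 3). Kcne2 and Kcne4 are the fitted genes with separated groups, and Kcnh1 and Kcnh2 are spread widely among the knockout libraries.

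Kcne4, the inhibitory subunit, was lower in every knockout library than in every wild-type library. It had 9575, 10885 and 10257 normalized counts in wild-type replicates 1, 2 and 3 and 6786, 4452 and 2903 in knockout replicates 1, 2 and 3. The wild-type libraries lay close together and the knockout libraries were spread over more than a 2-fold range, with replicate 3 lowest. The mean was 10239 ± 655 in wild-type and 4713 ± 1955 in knockout, a 2.17-fold difference (fitted log2 change −1.12 ± 0.29 SE). By replicate number, the knockout values were 0.709, 0.409 and 0.283 times wild-type. Since the groups did not overlap, any pairing gives this direction, and the ratios add no support. Leaving out knockout replicate 3 gave a log2 change of −0.86, and leaving out knockout replicate 1 gave −1.46.

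Knockout replicate 3, the lowest in Kcne4, was also lowest in smooth muscle markers. This was not particular to smooth muscle. The same library was lowest in the endothelial sum (374 CPM, against 485 to 594 in wild-type) and in the neuronal and Schwann cell sum (31.3, against 48.2 to 67.9). It was lowest in the mesothelial and placental sums too, and highest in the epithelial and leukocyte sums. As a share of the smooth muscle sum, a measure added after its low value in knockout replicate 3 was seen, Kcne4 was at 0.606, 0.701 and 0.761% in wild-type and 0.396, 0.234 and 0.385% in knockout. The groups still did not overlap on this scale, and the knockout mean was 0.491 times that of wild-type. The portion of all genes that separates on this scale was not counted. The summed mesothelial markers (8 of 8 detected, none at 0 in any library) were also lower in every knockout library, at 272, 168 and 145 CPM in wild-type and 97.3, 114 and 90.0 in knockout. Of the 8 genes, Msln alone was lower in every knockout library, at 3794, 2155 and 3302 normalized counts in wild-type and 1452, 717 and 910 in knockout, and the other 7 overlapped. Among 7 fibroblast and stroma markers, 2 (Dcn and Lum) were also lower in every knockout library, as were 7.31% of all fitted genes. The stromal sum overlapped, at 12958 to 20254 CPM in wild-type and 13900 to 17500 in knockout. The part of mesothelium or stroma in the Kcne4 difference was not tested. Within wild-type, replicate 1 had the highest mesothelial sum and the lowest Kcne4.

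Kcne2, which joins Kcnq1 and hERG1, was higher in every knockout library than in every wild-type library. It had 1214, 1282 and 2173 normalized counts in wild-type and 3066, 3265 and 2960.5 in knockout. Here the knockout libraries lay close together, and wild-type replicate 3 stood above the other wild-type libraries. The mean was 1556 ± 535 in wild-type and 3097 ± 154 in knockout, a 1.99-fold difference (fitted log2 change 1.00 ± 0.23 SE). By replicate number, the knockout values were 2.53, 2.55 and 1.36 times wild-type, again a direction that any pairing gives. The log2 change was 1.01 without knockout replicate 1, 1.03 without knockout replicate 3 and 1.31 without wild-type replicate 3. As a share of the smooth muscle sum the groups did not overlap either, at 0.0769, 0.0826 and 0.161% in wild-type and 0.179, 0.171 and 0.393% in knockout. The low smooth muscle sum of knockout replicate 3 raises its share here.

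Uterine epithelial markers (10 of 10 detected, none at 0) overlapped between genotypes, with sums of 3529, 2793 and 5733 CPM in wild-type replicates 1, 2 and 3 and 4369, 1832 and 6810.02 in knockout. Wild-type replicate 3 was the highest of its group in both Kcne2 and the epithelial sum. In knockout, Kcne2 was highest in replicate 2, the library with the lowest epithelial sum of all 6, and lowest in replicate 3, the one with the highest. The knockout libraries differed little in Kcne2 (3097 ± 154 normalized counts), so their order says little. The part of epithelium in the Kcne2 values was not tested.

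The Kcne pool as a whole had another composition in knockout. Kcne4 made up 83.3, 84.4 and 75.2% of the summed Kcne1 to Kcne4 level per kilobase in wild-type and 58.9, 47.0 and 38.9% in knockout. Kcne2 made up 15.9, 14.9 and 24.0% in wild-type and 40.01, 51.8 and 59.7% in knockout. Kcne3 made up 0.764, 0.657 and 0.816% in wild-type and 1.07, 1.19 and 1.26% in knockout, higher in every knockout library, with the summed Kcne level lower in knockout replicates 2 and 3. The ratio of Kcne4 to Kcne2 per kilobase was 5.25, 5.64 and 3.14 in wild-type and 1.47, 0.907 and 0.652 in knockout, with means of 4.68 ± 1.35 and 1.01 ± 0.42. Since Kcne4 and Kcne2 were chosen for opposite directions, the separation of these ratios follows from that choice.

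**Figure D2:**
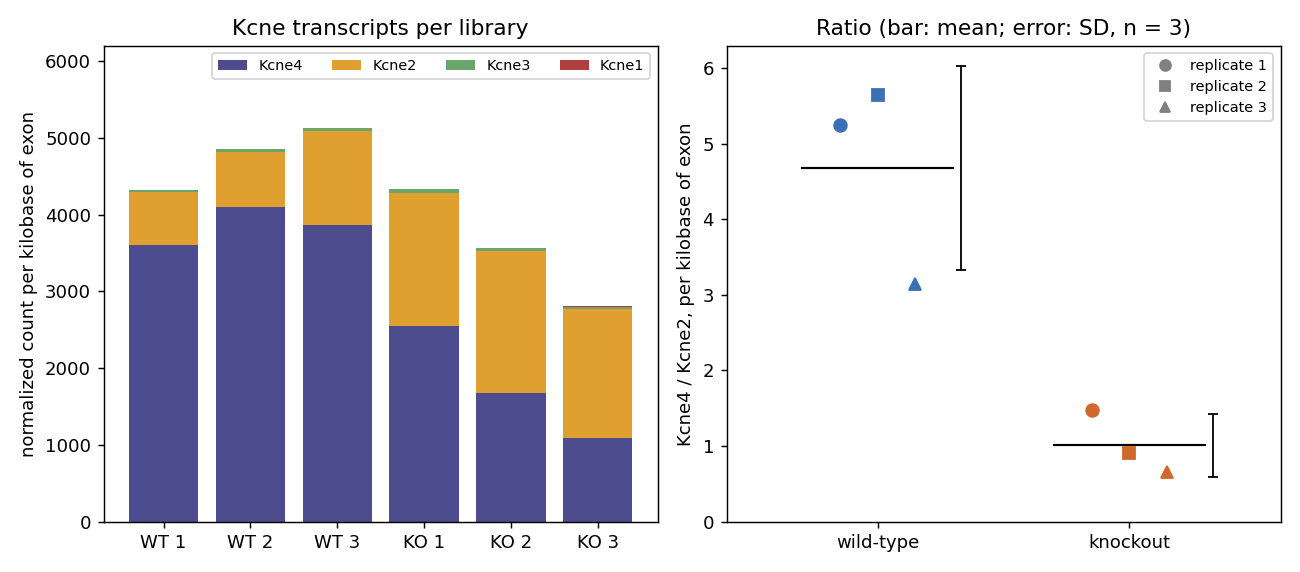
Left, normalized counts per kilobase of exon (vertical axis) of the 4 Kcne genes stacked for each library. Right, the ratio of Kcne4 to Kcne2 per kilobase in each library, with the mean and SD (n = 3). The ratio lies at 3.14 or above in wild-type and at 1.47 or below in knockout.

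Set against the channels they can join, Kcne4 transcripts outnumbered the summed Kcnq1, Kcnq3, Kcnq5, Kcnh1 and Kcnh2 level per kilobase 7.78, 7.13 and 6.71 times in wild-type and 2.43, 2.21 and 2.17 times in knockout. Libraries of a genotype were close to each other in this ratio, although the knockout libraries differed widely in both its parts. The same ratio for Kcne2 overlapped, at 1.48, 1.26 and 2.14 in wild-type and 1.65, 2.43 and 3.33 in knockout. Both ratios were formed from the values that chose the genes and carry no test.

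Kcne3, the subunit best known from epithelia, had 58.8, 56.8 and 74.5 normalized counts in wild-type and 82.8, 75.8 and 62.9 in knockout. The groups overlapped, and the fitted log2 change was 0.23 ± 0.25 SE. Kcne1 had 0, 2 and 0 raw counts in wild-type and 3, 5 and 4 in knockout. A count of 0 allows up to 3 counts, so the wild-type and knockout levels of Kcne1 were at or close to the limit of detection, and it was not fitted.

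Among the channel genes, Kcnh2 (hERG1) was the most abundant and differed widely between knockout libraries. It had 1418, 1734 and 1503 normalized counts in wild-type and 3816, 2691 and 1025 in knockout. Knockout replicates 1 and 2 stood above all wild-type libraries and knockout replicate 3 below them. The fitted log2 change was 0.70 ± 0.41 SE, 1.07 without knockout replicate 3 and 0.28 without knockout replicate 1. Knockout replicate 3 was again the library with the lowest smooth muscle sum, and with the lowest endothelial, mesothelial, placental and neuronal sums. As a share of the smooth muscle sum, Kcnh2 was at 0.0898, 0.112 and 0.111% in wild-type and 0.223, 0.141 and 0.136% in knockout. The groups did not overlap on this scale, on which the low sum of knockout replicate 3 raises its share. The portion of all genes that separates on this scale was not counted, so nothing is read from it.

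Kcnq1, the partner of all Kcne proteins, had 470, 551 and 825 normalized counts in wild-type and 730, 503 and 1031 in knockout. The groups overlapped and the log2 change was 0.29 ± 0.31 SE with all libraries and 0.00 without knockout replicate 3. In the uterine epithelial sum, the 3 libraries highest in Kcnq1 were also the 3 highest, in the same order. These were knockout replicate 3, wild-type replicate 3 and knockout replicate 1. Below these the orders differed, with wild-type replicate 1 lowest in Kcnq1 and knockout replicate 2 lowest in the sum. Among single markers, Krt8, Krt18, Krt7 and Prom1 kept the order of the first 3 libraries. Epcam, Cdh1, Krt19 and Cldn4 were higher in wild-type replicate 1 than in knockout replicate 1. Wfdc2 was highest in wild-type replicate 3, and Foxa2 was highest there and lowest in knockout replicate 3 (26.4 normalized counts). The part of epithelium in the Kcnq1 values was not tested. Kcnq1 counts are uncertain in another way, though over a short stretch, because the antisense RNA Kcnq1ot1 shares 121 exonic bases with Kcnq1. Kcnq1ot1 silences genes around Kcnq1 on the paternal chromosome and had 262% of the counts of Kcnq1. Those counts are spread over 93.1 kilobases of exon, against 4.09 for Kcnq1. Per kilobase, Kcnq1ot1 was at 16.6 in wild-type and 21.1 in knockout, below Kcnq1 at 150.3 and 184.3. Reads on the shared bases were not counted separately. Whether strand was used in the counting is not stated in the sources. Kcnq1ot1 itself had 1585, 1241 and 1824 normalized counts in wild-type and 2193, 1870.2 and 1840.4 in knockout (log2 0.35 ± 0.17 SE, edgeR adjusted p = 0.643).

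Kcnq5, a channel subunit of neurons and vascular smooth muscle, had almost the same mean in both genotypes, 456 ± 126 and 461 ± 164 normalized counts. Its values were 344, 591 and 432 in wild-type and 509, 596 and 278 in knockout, and the log2 change was 0.02 ± 0.32 SE. The intronic pseudogene Gm7658 on the same strand had 24.8% of the counts of Kcnq5 but shares no exonic base with it. The non-coding gene Gm26580 on the other strand shares 237 exonic bases with Kcnq5, and its counts were not analysed here. Kcnq3, a subunit of the neuronal M-current channel, had 1, 2 and 2 raw counts in wild-type and 0, 6 and 1 in knockout, and was not fitted.

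Kcnh1, also called Eag1, was low and uneven. It had 82.0, 38.8 and 53.4 normalized counts in wild-type and 135.9, 25.9 and 22.6 in knockout. The highest value was that of knockout replicate 1, the library with the highest placental marker sum, and the lowest values were those of knockout replicates 2 and 3, the libraries with the lowest placental sums. The part of placental tissue in these values was not tested. The log2 change was 0.10 ± 0.70 SE with all libraries, −1.23 without knockout replicate 1 and −0.29 with the replicate number as a block. Hhat, a coding gene on the other strand within the span of Kcnh1, had 232% of its counts but shares no exonic base with it.

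**Figure D3:**
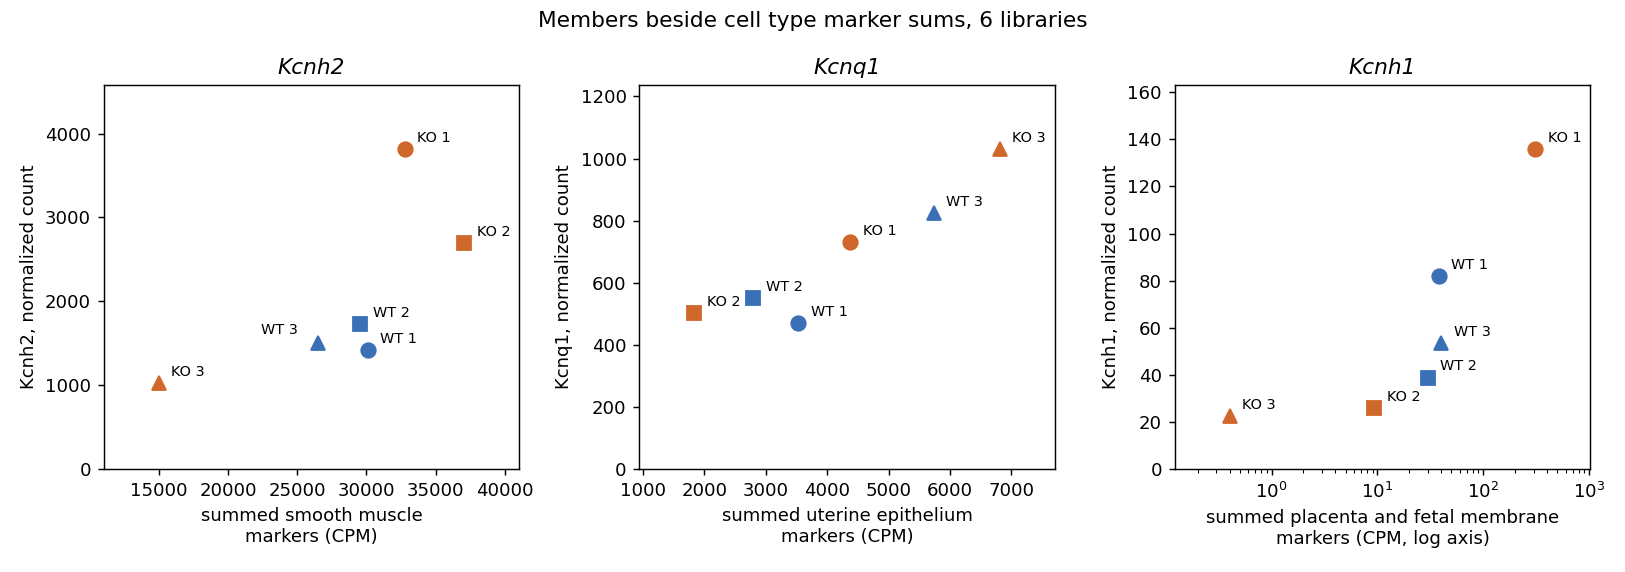
Normalized counts of Kcnh2, Kcnq1 and Kcnh1 (vertical axes) against the summed markers of smooth muscle, uterine epithelium and placenta with fetal membrane (horizontal axes, CPM, the last on a log scale) in the 6 libraries, with colour giving the genotype and shape the replicate. Knockout replicate 3 is lowest in Kcnh2 and smooth muscle and highest in Kcnq1 and epithelium, and knockout replicate 1 is highest in Kcnh1 and placental markers. Each gene is drawn against 1 marker list only. Knockout replicate 3 is also lowest in summed endothelial, mesothelial, placental and neuronal markers.

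Across the members, 7 of 9 had enough counts to be fitted, and 2 of these 7 had groups that did not overlap, beside 14.4% of all 19599 fitted genes. Kcne2 was the 1 that was higher, beside 7.1% of all fitted genes, and Kcne4 the 1 that was lower, beside 7.31%. Of the 7, 6 had positive and 1 had negative log2 changes, with a median of 0.23 beside 0.01 for all fitted genes. By edgeR's quasi-likelihood test with Benjamini-Hochberg adjustment over all fitted genes, 0 of the 7 passed an adjusted p of 0.05, beside 0.0204% of all genes (4 genes, all lower, and with the replicate number as a block 5 lower and 2 higher). At an unadjusted p under 0.05 the count was 2, beside 8.56% of all genes. By DESeq2 it was 2 (Kcne2 and Kcne4), beside 1.9% of all genes, and by limma 0, beside 0.0204%. The members were chosen on this contrast, so these counts support nothing.

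**Figure D4:**
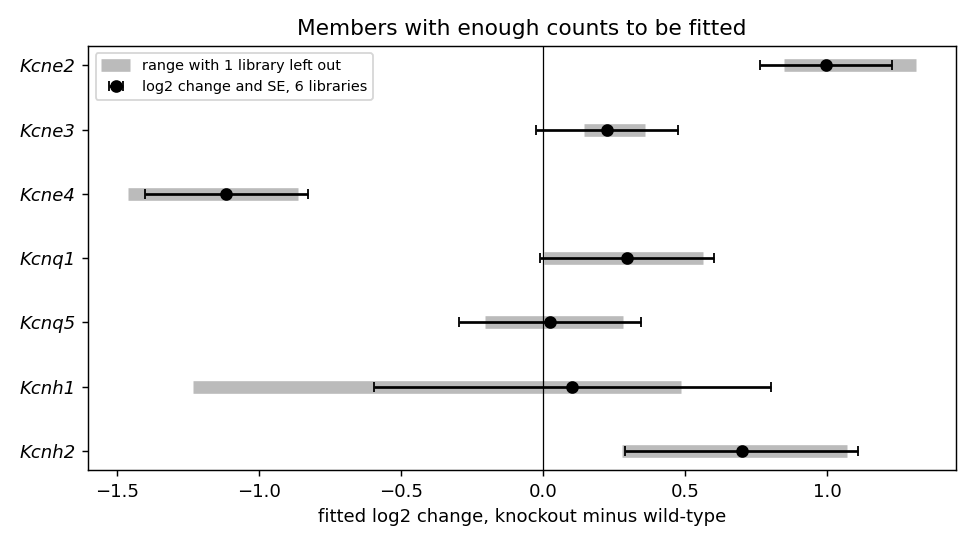
Fitted log2 change, knockout minus wild-type (horizontal axis), of the 7 fitted members (points, with error bars of 1 SE), and the range of that change when any 1 of the 6 libraries is left out (grey). The ranges were 0.85 to 1.31 for Kcne2, −1.46 to −0.86 for Kcne4, 0.28 to 1.07 for Kcnh2 and 0.14 to 0.36 for Kcne3. They were 0.004 to 0.56 for Kcnq1, −1.23 to 0.49 for Kcnh1 and −0.20 to 0.28 for Kcnq5. A range shows how far 1 library moves the change and is not a confidence interval. Whether it includes 0 is therefore no test.

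The other Kcne and Kcnh genes were at low levels. Of 7 such genes, 3 had enough counts to be fitted. Kcnh5, Kcnh6 and Kcnh8 had 2 to 7 raw counts over all 6 libraries together, and Kcne1l, also known as Kcne5, had 27. Kcnh4 was at 10.5 ± 3.56 normalized counts in wild-type and 14.1 ± 4.69 in knockout (log2 0.46 ± 0.43 SE, edgeR adjusted p = 0.876). Kcnh7 was at 34.0 ± 8.87 in wild-type and 31.4 ± 7.47 in knockout, and Kcnh3 at 25.4 ± 10.5 and 24.9 ± 5.82, with edgeR adjusted p of 0.97 and 0.999. Of the 3 fitted genes 0 passed in either direction by edgeR, by DESeq2 or by limma, beside 0.0204%, 1.9% and 0.0204% of all fitted genes. At an unadjusted edgeR p under 0.05 the count was 0, beside 8.56%. With 3 genes at such shares, nothing is read from these counts. The median log2 change was −0.01, beside 0.01 for all fitted genes, with 1 positive and 2 negative. The same shares and median are the background for the lists below.

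Other channel subunits that can assemble with Kcne proteins (Kcna, Kcnb, Kcnc, Kcnd and Hcn genes and Kcnma1) showed 0 of 16 past the edgeR threshold, 0 by DESeq2 and limma, and 3 at an unadjusted p under 0.05, beside 8.56% of all fitted genes. The median log2 change was 0.51, with 11 positive and 5 negative. The 3 with the smallest p were the pacemaker channel genes Hcn4 (38.1 ± 10.05 to 96.3 ± 43.0 normalized counts, log2 1.34 ± 0.39 SE, edgeR adjusted p = 0.373) and Hcn2 (60.6 ± 2.92 to 92.5 ± 18.9, adjusted p = 0.564) and the delayed rectifier gene Kcna1 (20.6 ± 3.55 to 58.6 ± 32.9, adjusted p = 0.373). In each of these 3 genes the lowest knockout library lay above the highest wild-type library, as it did in 7.1% of all fitted genes. Kcnma1, the large-conductance calcium-activated channel that Kcne4 can also bind, had a log2 change of −0.03 ± 0.29 SE.

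Accessory and silent subunits of other voltage-gated channels gave 0 of 13 past the edgeR threshold, 1 by DESeq2 (beside 1.9% of all fitted genes), 0 by limma and 1 at an unadjusted p under 0.05 (beside 8.56%), with 6 positive and 7 negative changes and a median of −0.01. The gene that DESeq2 called was Kcng1, a silent subunit that modifies Kcnb channels, with 71.0, 66.7 and 49.7 normalized counts in wild-type and 437, 578 and 94.3 in knockout. All 3 knockout libraries were higher, replicate 3 by far the least, and such separation was seen in 7.1% of all fitted genes. The log2 change was 2.58 ± 0.61 SE, with an edgeR adjusted p of 0.295 and a DESeq2 adjusted p of 0.00032. Without knockout replicate 3 the change was 3.03 and passed in edgeR (adjusted p = 0.0424). Kcnab3 and Kcnip3, with the next smallest p, had log2 changes of 0.81 ± 0.36 SE and 0.49 ± 0.26 SE.

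Regulators of KCNQ and hERG channels, such as calmodulin, lipid kinases and chaperones, gave 0 of 31 past the edgeR threshold, 0 by DESeq2 and limma and 1 at an unadjusted p under 0.05 (beside 8.56% of all fitted genes), with 23 positive and 8 negative changes and a median of 0.05. The smallest p was that of Akap5, a scaffold that brings kinases to KCNQ channels (14.7 ± 0.79 to 26.9 ± 8.69 normalized counts, log2 0.88 ± 0.34 SE, edgeR adjusted p = 0.531). Pip5k1a, a kinase that makes the membrane lipid PIP2 on which KCNQ channels depend, had 3195 ± 89.9 normalized counts in wild-type and 2674 ± 148 in knockout (log2 −0.25 ± 0.11 SE, edgeR adjusted p = 0.604). All 3 knockout libraries of Pip5k1a, at 2552, 2839 and 2632, lay below the wild-type libraries, as in 7.31% of all fitted genes. Of the 31 regulators, 4 had groups that did not overlap in either direction, beside 14.4% of all fitted genes.

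The genes whose profile over the 6 libraries was most like that of Kcne2 were Scnn1b, a subunit of the epithelial sodium channel, Aif1l and Spaca7. Likeness was the mean absolute difference between log2 levels centred on each gene's own mean, over 15053 candidates, and it was 0.13, 0.13 and 0.14. Scnn1b had 1162 ± 450 normalized counts in wild-type and 2596 ± 404 in knockout. The nearest to Kcne4 were the non-coding gene E330013P04Rik (0.11), Gm33474 (0.12) and Rad18, a DNA repair ubiquitin ligase gene (0.14). Rad18 had 3567 ± 332 normalized counts in wild-type and 1699 ± 414 in knockout. These genes were selected for likeness, so their genotype differences are no separate evidence.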

How the data were processed

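RNA-seq of myometrium from 3 wild-type and 3 Tcf23 knockout mice was analysed from the deposited files. Libraries were poly(A)-selected and directional, per the labels' protocols. The authors deposited 1 file of raw counts by Ensembl identifier per library, and a normalized table. Its signal, as deposited by the authors, is each library's count multiplied by a constant of 0.804 to 1.26, to within a relative deviation of 5.29e-10. HISAT2 2.2.1, HTSeq 0.9.1, DESeq2 2.11.40.7, FastQC 0.73 and the build mm10 appear in the submitters' processing notes, with no role given. Annotation release and strand setting: not given in the sources used here.

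Counts were fitted in R 4.3.3 with edgeR 4.0.16: filterByExpr, TMM, a quasi-likelihood fit on genotype, and an adjusted p under 0.05 over 19599 genes. The SE is the log2 change divided by the square root of F. Per-kilobase levels divide by the union of GENCODE M21 exons, and the M21 start of Kcne3 differs from that in the deposited table. Of 55055 identifiers, 54804 were in M21. Start positions, counted from 0 in the table, are given 1-based.

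Deviations from the group mean correlated at 0.147, 0.196 and 0.217 between libraries sharing a replicate number and at −0.223 to 0.061 between others. The titles number the libraries but state no pairing. Deviations within a group of 3 sum to 0, so positive values for some pairs push the others down. The correlations therefore cannot settle whether the numbers are pairs. Ratios by replicate number are a description, and a fit with the number as a block was an alternative. The other alternatives were RLE or upper-quartile scaling, no count filter, a minimum CPM of 1 in 3 libraries, DESeq2 1.42.0, limma 3.58.1 on log2 of the normalized values plus 1, leaving out each library, and longest-transcript length.

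Members and lists were chosen with earlier results of these data known. Named are the members, Tcf23, up to 3 genes per list with the smallest p, overlapping genes, and the 3 nearest profiles of Kcne2 and Kcne4 at a mean CPM of at least 1. Kcnma1 was named after its value was seen, as were Kcnh5, Kcnh6, Kcnh8, Kcne1l and the single marker genes. Some genes of these families are not reported here.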

Additional observations from a re-analysis of the deposited data

How the results depend on the processing

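Log2 changes of the 7 fitted members moved by less than the replicate SD under every alternative except Kcnh1 without knockout replicate 1. With 1 library left out they ranged from 0.85 to 1.31 for Kcne2, −1.46 to −0.86 for Kcne4, 0.28 to 1.07 for Kcnh2, 0.14 to 0.36 for Kcne3, 0.00 to 0.56 for Kcnq1, −0.20 to 0.28 for Kcnq5 and −1.23 to 0.49 for Kcnh1. With longest-transcript length, wild-type levels became 47.9 for Kcne3, 203 for Kcnq1 and 367.5 for Kcnh2 per kilobase, the order of the means was unchanged over the first 7 genes, and the Kcnq5 and Kcne3 libraries then overlapped.

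Counts of genes past the threshold, 0 higher and 4 lower in edgeR, were 4 and 8 with upper-quartile scaling, 47 and 34 with no filter and 245 and 135 with DESeq2. They were 0 to 3 higher and 1 to 4 lower with 1 library left out. With the replicate block 2 were higher and 5 lower, and the block changed no call in the lists or members. In the list of accessory subunits 1 gene was higher with DESeq2, and 0 to 1 with 1 library left out. The causes were not tested. Counts of 0 to 6 limit what can be said of Kcne1 and Kcnq3.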
